A study of Mus musculus with 8 samples.

Results

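The antioxidant genes described here are Nfe2l2, Keap1, Nqo1, Gclc, Gclm, Gsr, Txnrd1, Prdx1, Gpx4 and Sod2, the 10 of 48440 genes in the deposited count table whose symbol matched a list of NRF2 pathway and glutathione genes. They were measured by RNA sequencing in macrophages taken from pancreatic islets by sorting for CD11b and F4/80. The mice were wild-type C57BL/6J males aged 16 weeks. The high-fat diet (HFD) group had received food with 45% fat for 8 weeks, and the chow group had received standard food with 8% fat over the same 8 weeks. Each group had 4 libraries, numbered 5 to 8 for HFD and 1 to 4 for chow. Extracts from 2 mice were pooled for each library, which makes the pool the replicate, and 500 pg of RNA was amplified.

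NRF2, the protein made from Nfe2l2, is a transcription factor that most cells make and destroy continuously. In unstressed cells KEAP1 hands it to a CUL3 ubiquitin ligase for degradation. Oxidants and electrophiles modify cysteines of KEAP1, NRF2 then accumulates, pairs with a small MAF protein and binds the antioxidant response element of genes for glutathione synthesis, thioredoxin recycling and quinone reduction. Because this control acts on the protein, the RNA level of Nfe2l2 itself does not report NRF2 activity, and the RNA of its target genes is the usual readout. Macrophages use these enzymes against the oxidants that they make themselves.

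The core letters of the antioxidant response element are shown first, since they are what links the target genes to NRF2. The motif TGACNNNGC was searched on both strands of the RefSeq promoter windows of GRCm38.p6, which run from 250 bases before to 50 bases after an annotated transcription start. Windows were matched for 8 of the 10 genes, all but Gclc and Gsr, and 4 of these 8 genes had a match. Of all 27025 genes with a window, 14.0% had one. The windows below read 5′ to 3′ along the strand of the gene, with the match in capitals. It reads in the forward direction in Nfe2l2 and as the reverse complement in the other genes.
Nfe2l2 (chr2:75704879-75704913, minus strand, match starting 240 bases before the transcription start): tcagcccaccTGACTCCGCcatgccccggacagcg
Gclm (chr3:122245407-122245447, plus strand, 134 bases before the start): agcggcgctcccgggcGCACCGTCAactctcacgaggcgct
Prdx1 (chr4:116685450-116685490, plus strand, 133 bases before the start): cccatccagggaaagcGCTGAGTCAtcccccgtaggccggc
Txnrd1 (chr10:82859098-82859138, plus strand, 92 bases before 1 of its 3 annotated starts): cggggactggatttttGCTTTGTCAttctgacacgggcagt
The windows of Keap1, Nqo1, Gpx4 and Sod2 did not hold these letters, and sequence outside the windows was not searched. A match describes the sequence and is not a measured binding site.

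Library totals ranged from 4532503 to 5917920 counts in HFD and from 4288665 to 6391247 counts in chow. Levels are CPM, the counts of a gene scaled to a common library total and corrected by the trimmed mean of M values (TMM), and a count of 0 in 1 library allows up to 0.521 to 0.632 CPM in HFD and 0.468 to 0.708 CPM in chow (3 counts, counting error only). Transcripts of both sort markers were present in every library, those of Adgre1 (F4/80) at 322 to 500.1 CPM in HFD and 416 to 599.8 CPM in chow, and those of Itgam (CD11b) at 197 to 411 CPM in HFD and 225 to 375 CPM in chow. RNA of other cells differed between libraries. The summed level of 10 stellate cell and fibroblast markers was 421, 249, 211 and 8.64 CPM in the HFD libraries 5 to 8, against 1.87 to 24.0 CPM in chow, where 6 of the 10 markers were at 0. The 10 acinar markers summed to 36.6 to 1551 CPM in HFD and 0.225 to 3249 CPM in chow, and the 10 endocrine markers to 933 to 1790 CPM in HFD and 438 to 1742 CPM in chow. Dendritic cell markers summed to 142 to 269 CPM in HFD and 254 to 306 CPM in chow, and B cell markers to 208 to 300 CPM in HFD and 250 to 446 CPM in chow, although Cd79a and Pax5 were at 0 in every library. The summed endothelial, ductal, T and NK cell and neutrophil markers did not exceed 20.7 CPM per list in HFD or 7.65 CPM in chow, with Flt1, Sox9, Cd3e and S100a8 among the genes at 0 throughout. The part of other cells' RNA in the levels below was not tested.

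HFD and chow macrophages were compared to ask which transcripts differ after 8 weeks of the diet. No antioxidant gene passed the test. Of the 10 genes, 9 passed the filter on low counts, and edgeR's quasi-likelihood test called 0 of these 9 at an adjusted p of 0.05 (adjusted p = 0.987 for each). It called 0 of 10129 genes overall (0%). At an unadjusted p under 0.05 there were 0 of the 9, beside 5.35% of all genes. DESeq2 called 28 of 9434 genes (0.297%) and limma-voom 1 of 10129 (0.00987%), with 0 antioxidant genes among them. The HFD and chow libraries overlapped for all 10 genes. Of all genes tested, which leave out Nqo1, 3.39% showed no overlap. Beside so small a share, overlap in all 10 does not set these genes apart. Among the 9, 4 had a positive and 5 a negative log2 fold change of HFD over chow, and 51.4% of all genes tested had a negative one. Their median was -0.07, beside -0.02 for all genes tested. In these bulk samples fewer cells of a type and less RNA per cell cannot be told apart.

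**Figure D1:**
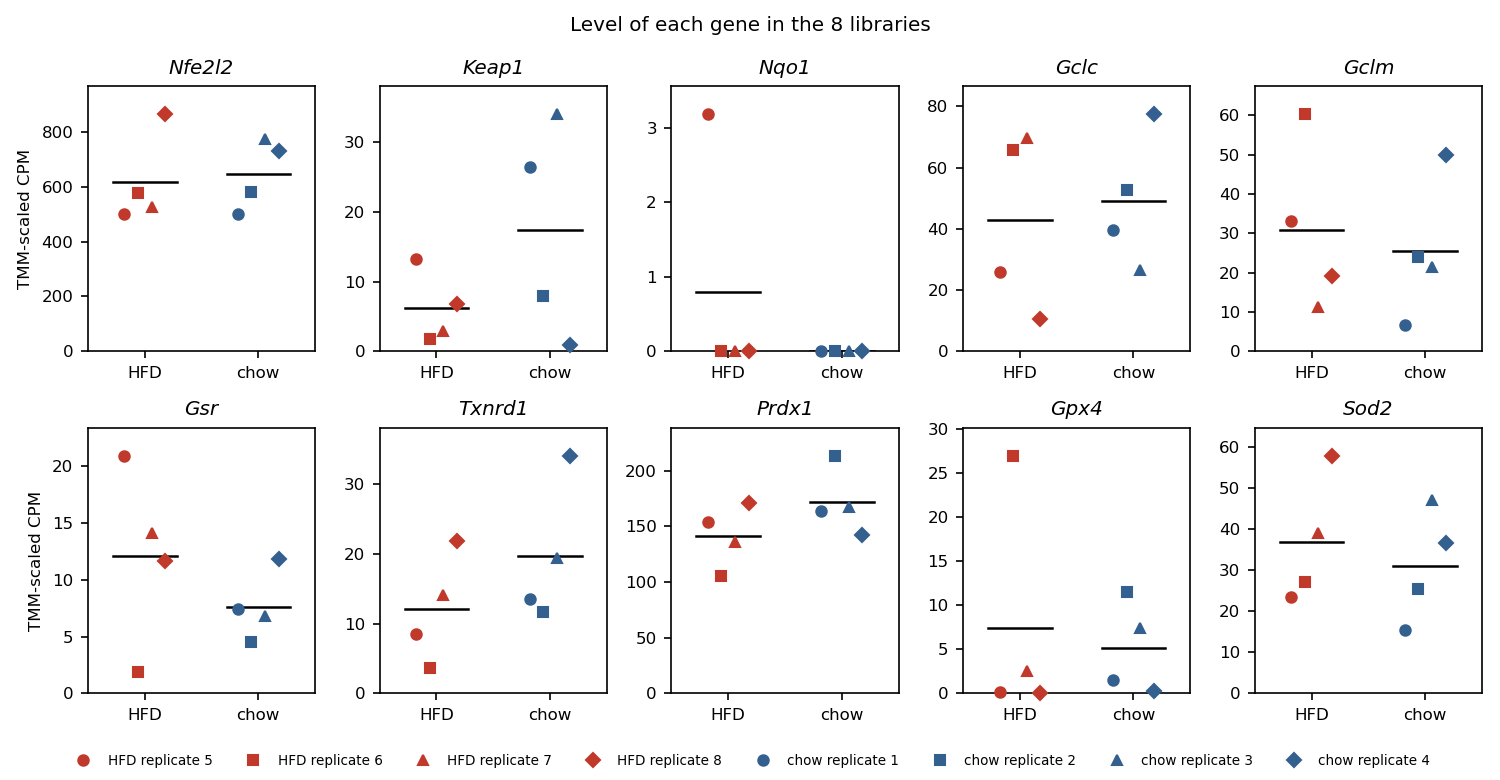
TMM-scaled CPM (y axes, each starting at 0) of the 10 antioxidant genes in the 4 HFD and 4 chow libraries; each point is 1 library and the bar is the group mean. The points of the groups overlap in every panel, and Nqo1 is above 0 only in HFD replicate 5.

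Nfe2l2 (ENSMUSG00000015839, chromosome 2, 75675513 to 75704641, minus strand), the transcription factor gene itself, was at 501, 576, 524 and 863 CPM in HFD replicates 5 to 8, against 499, 579, 773 and 728 CPM in chow replicates 1 to 4. HFD replicate 8 was the highest library and the other HFD libraries lay within the chow range. The means were 616 ± 167 CPM in HFD and 644 ± 128 CPM in chow (SD, n = 4 each), a log2 fold change of -0.07 (SE 0.20). The 95% interval of the difference ran from 0.718-fold to 1.27-fold. The sign of this small difference was not fixed: it was 0.0025 when library totals alone were used for scaling, 0.03 without HFD replicate 5, 0.0026 without HFD replicate 7 and 0.03 without chow replicate 3. With the stellate and fibroblast sum as a covariate it was 0.50 (SE 0.25, edgeR adjusted p = 0.9997); that sum was itself higher in 3 of 4 HFD libraries than in every chow library, so the covariate and the diet cannot be told apart fully.

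Keap1 (ENSMUSG00000003308, chromosome 9, 21229730 to 21239361, minus strand), the adaptor that marks NRF2 for degradation, was far lower and less even. It had 13.3, 1.74, 2.95 and 6.83 CPM in HFD replicates 5 to 8, against 26.5, 7.96, 34.0 and 0.944 CPM in chow replicates 1 to 4. The 2 highest values were in chow, but so was the lowest. The means were 6.21 ± 5.21 CPM in HFD and 17.4 ± 15.5 CPM in chow (SD, n = 4 each). Its log2 fold change of -1.48 (SE 1.07, edgeR adjusted p = 0.987) was the most negative of the 9, with an interval of 0.0761-fold to 1.69-fold. It kept its sign under all 17 alternatives, from -2.17 to -0.69. Several deposited counts of Keap1 were fractions. Of its 4693 exon bases, 510 are shared with the antisense transcript Gm16754 on the opposite strand. No strand information was given, so reads of the pair that lie within the shared bases cannot be told apart. Gm16754 was at 3.18, 2.78, 12.6 and 8.84 CPM in HFD and at 1.57, 2.97, 5.39 and 0 CPM in chow, a log2 fold change of 1.45 (SE 1.34) with the sign opposite to that of Keap1.

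Nqo1 (ENSMUSG00000003849, chromosome 8, 107388225 to 107403206, minus strand), a quinone reductase and the target most often used to read NRF2 activity, was at or near the detection limit. HFD replicate 5 held 16 counts (3.18 CPM), and the other 3 HFD libraries and all 4 chow libraries held 0. It did not pass the filter and was not tested in the reported fit. With no filter edgeR gave it an unadjusted p of 0.038 (adjusted p = 0.428). Summed over the groups, the HFD level was 5.18 times the limit that 0 counts allow over chow (3 counts over the group, 0.151 CPM, counting error only). The whole of the HFD level came from 1 library, and the limit leaves out the spread between libraries. That library also had the highest stellate and fibroblast sum, 421 CPM. HFD replicates 6 and 7 had sums of 249 and 211 CPM and held 0 counts of Nqo1. The part of stellate and fibroblast RNA in the Nqo1 count was not tested.

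Glutathione is made from cysteine and glutamate by glutamate-cysteine ligase, whose catalytic subunit is encoded by Gclc and whose modifier subunit is encoded by Gclm. Gclc (ENSMUSG00000032350, chromosome 9, 77754535 to 77794485, plus strand) was at 26.0, 65.8, 69.5 and 10.4 CPM in HFD replicates 5 to 8, against 39.5, 52.8, 26.5 and 77.4 CPM in chow replicates 1 to 4. HFD libraries thus lay both in the upper part of the chow range and below it. The log2 fold change was -0.19 (SE 0.56, interval 0.386-fold to 1.99-fold), and it turned to 0.14 without HFD replicate 8 and to 0.11 without chow replicate 4. Gclm (ENSMUSG00000028124, chromosome 3, 122245557 to 122270732, plus strand) was at 33.2, 60.3, 11.2 and 19.1 CPM in HFD, against 6.74, 23.9, 21.4 and 50.03 CPM in chow. Its range was 5.39-fold in HFD and 7.42-fold in chow, which is wider than the difference between the diets. The log2 fold change was 0.28 (SE 0.69, interval 0.448-fold to 3.28-fold) and turned to -0.27 without HFD replicate 6 and to -0.03 without chow replicate 1. Gclm overlaps Gm17494 on the opposite strand over 296 exonic bases, but that transcript had 47.1 counts over all libraries beside 1160 for Gclm.

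The balance of the RNAs of these subunits varied between libraries. Per kb of exon, the ratio of Gclc to Gclm was 1.31, 1.82, 10.4 and 0.914 in HFD replicates 5 to 8 and 9.80, 3.69, 2.08 and 2.58 in chow replicates 1 to 4. By this measure the RNA of the catalytic subunit was the higher of the pair in 7 of 8 libraries. Without division by exon length Gclm was the higher in HFD replicate 8 and also in HFD replicate 5. In HFD replicate 5 it was at 33.2 CPM, beside 26.0 CPM for Gclc. In HFD replicates 5, 6 and 8 the ratio was below every chow library, and in HFD replicate 7 it was above every chow library. The difference was not tested.

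Gsr, Txnrd1 and Prdx1 recycle or spend reduced thiols. Gsr (ENSMUSG00000031584, chromosome 8, 33652523 to 33698163, plus strand), which returns oxidised glutathione to its reduced form, was at 20.9, 1.91, 14.1 and 11.6 CPM in HFD replicates 5 to 8, against 7.41, 4.53, 6.84 and 11.8 CPM in chow replicates 1 to 4. HFD held the 2 highest values and also the lowest. Its log2 fold change of 0.67 (SE 0.99, interval 0.378-fold to 6.66-fold) was the highest of the 9 and stayed positive under all 17 alternatives, from 0.11 to 1.02. Txnrd1 (ENSMUSG00000020250, chromosome 10, 82833951 to 82897712, plus strand), the selenoprotein that reduces cytosolic thioredoxin, was at 8.54, 3.65, 14.1 and 21.9 CPM in HFD, against 13.5, 11.7, 19.5 and 34.0 CPM in chow. HFD replicates 5 and 6 lay below every chow library. The log2 fold change was -0.71 (SE 0.81, interval 0.188-fold to 2.00-fold), and it ran from -1.16 without HFD replicate 8 to -0.32 without chow replicate 4. With the sum of stellate and fibroblast markers as a covariate it was 0.26 (SE 1.24). The highest Txnrd1 level was in chow replicate 4, the library with the highest acinar sum, 3249 CPM. HFD replicate 8 had the next highest Txnrd1 level and an acinar sum of 36.6 CPM. The part of acinar RNA in the Txnrd1 levels was not tested.

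Prdx1 (ENSMUSG00000028691, chromosome 4, 116685544 to 116700822, plus strand), a peroxiredoxin that removes hydrogen peroxide at the expense of thioredoxin, was the enzyme measured most evenly. It was at 154, 105, 136 and 172 CPM in HFD replicates 5 to 8, against 164, 213, 168 and 142 CPM in chow replicates 1 to 4. HFD replicates 6 and 7 lay below every chow library and HFD replicates 5 and 8 within the chow range. The means were 142 ± 28.4 CPM in HFD and 172 ± 29.7 CPM in chow (SD, n = 4 each), a log2 fold change of -0.28 (SE 0.26). The interval ran from 0.565-fold to 1.21-fold, and the sign was negative under all 17 alternatives, from -0.39 to -0.0057.

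Gpx4 and Sod2 act in membranes and mitochondria. Gpx4 (ENSMUSG00000075706, chromosome 10, 80047166 to 80056439, plus strand), the selenoprotein that reduces lipid hydroperoxides and protects cells from ferroptosis, had 1, 155, 12 and 0 counts in HFD replicates 5 to 8, against 7, 74, 36 and 1 counts in chow replicates 1 to 4. In CPM these were 0.199, 26.9, 2.53 and 0 in HFD and 1.57, 11.6, 7.46 and 0.236 in chow. HFD replicate 6 was the highest library and HFD replicate 8 held none. The fitted log2 fold change was 0.50 with an SE of 1.52, an interval of 0.156-fold to 12.9-fold. It turned to -2.50 without HFD replicate 6, to -0.48 with limma-voom and to -3.58 with the stellate and fibroblast covariate, so these libraries give no direction for Gpx4. A processed pseudogene, Gpx4-ps2, is annotated but has no row in the deposited counts. Whether the Gpx4 counts include reads of it was not tested. Sod2 (ENSMUSG00000006818, chromosome 17, 13006846 to 13040063, plus strand), the manganese superoxide dismutase of mitochondria, was at 23.4, 27.1, 39.0 and 57.6 CPM in HFD, against 15.5, 25.3, 47.1 and 36.6 CPM in chow. The lowest library was in chow and the highest in HFD. The log2 fold change was 0.24 (SE 0.55, interval 0.531-fold to 2.63-fold), and it turned to -0.06 without HFD replicate 8, the library with the highest level.

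**Figure D2:**
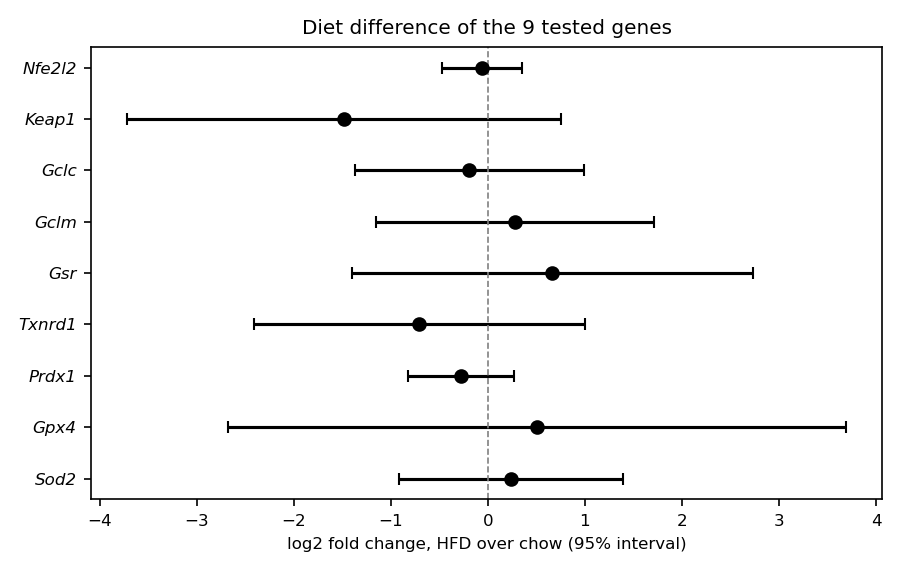
Log2 fold change of HFD over chow (x axis) of the 9 antioxidant genes that passed the filter; points are edgeR estimates and bars their 95% intervals. Every bar crosses 0, those of Nfe2l2 and Prdx1 being the narrowest and that of Gpx4 the widest.

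No library was high or low for all of the genes. HFD replicate 6 had the highest Gclm and Gpx4 levels of the 8 libraries and the lowest Gsr, Txnrd1 and Prdx1 levels. HFD replicate 8 had the highest Nfe2l2 and Sod2 and the lowest Gclc and Gpx4. Chow replicate 1 had the lowest Nfe2l2, Gclm and Sod2, and chow replicate 4 the highest Gclc and Txnrd1 with the lowest Keap1. The median over the 9 genes of the log2 level centred on each gene's mean lay between -0.30 in HFD replicate 5 and 0.32 in chow replicate 3. Replicates of 1 diet differed by 0.33 for Nfe2l2 and 0.27 for Prdx1 (pooled within-diet SD of log2 CPM), at percentiles 8.105 and 4.99 of the genes tested. The same SD was 3.00 for Gpx4, at percentile 96.5, and the median of all genes tested was 0.98. These percentiles were not matched for level: libraries held 2220 to 4295 counts of Nfe2l2 and 0 to 155 of Gpx4.

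Levels were compared between genes per kb of exon. The length was that of all annotated exons of a gene merged, from 1553 bases for Nqo1 to 10008 for Sod2. Which transcripts were expressed was not tested, and the order depends on this length. In CPM alone the Sod2 means (36.8 in HFD and 31.1 in chow) were above those of Gclm (30.9 in HFD and 25.5 in chow). Nfe2l2 was highest at 166 ± 36.5 CPM per kb, followed by Prdx1 at 51.5 ± 10.3 and Gclc at 12.2 ± 6.40 CPM per kb (SD over 8 libraries). These stood at percentiles 99.0, 95.35 and 74.5 of the genes tested. The ranges over libraries of Nfe2l2 and Prdx1 did not overlap, nor did those of Prdx1 and Gclc. Below them Gclm, at 4.48 ± 2.96, was followed by Gpx4, Gsr, Sod2, Keap1 and Txnrd1, with means of 3.66, 3.59, 3.39, 2.51 and 2.24 CPM per kb. In this stretch each gene's range overlapped that of its neighbour, and the upper gene of a pair was the higher one in only 3 to 5 of 8 libraries, so their order is not fixed. Gclc and Gclm also overlapped, with Gclc higher in 7 of 8 libraries. Nqo1 was last at 0.256 CPM per kb. The transcription factor was thus at 162 CPM per kb in HFD and 170 CPM per kb in chow, and its repressor Keap1 at 1.32 and 3.70 CPM per kb in HFD and chow.

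**Figure D3:**
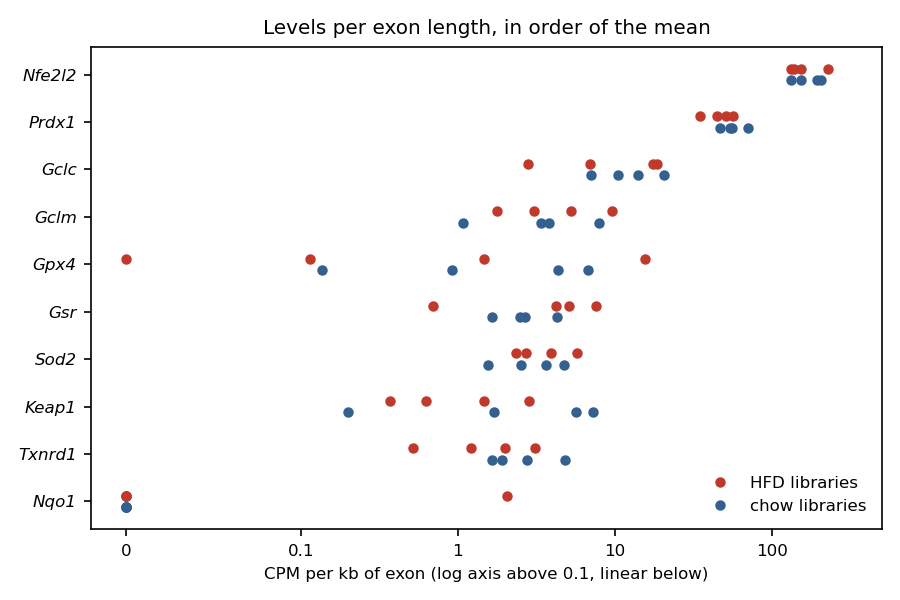
CPM per kb of exon (x axis, logarithmic above 0.1 and linear below) of the 10 antioxidant genes in order of their mean; each point is 1 library, HFD above chow in each row. Nfe2l2, Prdx1 and Gclc lead, the next 6 genes overlap, and Nqo1 is at 0 in 7 of 8 libraries.

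Among the genes whose centred log2 profile over the 8 libraries lay closest to that of Nfe2l2 were Swap70 and Phf14, with root-mean-square differences of 0.12 and 0.13 (median of 10013 genes 0.98). Neither is in the antioxidant lists, and their log2 fold changes were -0.24 (SE 0.26) and -0.06 (SE 0.28). That of Phf14 turned to 0.0025 with library totals alone, to 0.02 without HFD replicate 5, to 0.01 without HFD replicate 7 and to 0.05 without chow replicate 4. Both genes were picked for small differences in these same libraries, so their distance from the median of all genes follows from the choice. Nfe2l2 itself varied little between replicates of the same diet (SD of log2 CPM 0.33, percentile 8.105 of the genes tested). Whether the likeness goes beyond such evenness was not tested. The profiles share libraries, depth and scaling.

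The wider pathway also gave no call. Of 99 further genes in 5 lists, 70 passed the filter, 32 with a positive and 38 with a negative log2 fold change (54.3% negative, beside 51.4% of all genes tested). edgeR and limma-voom each called 0 of the 70, beside 0% and 0.00987% of all genes tested. DESeq2 also called 0, beside 0.297% of all genes that it gave an adjusted p, but it gave none for Ccs. At an unadjusted p under 0.05 edgeR gave 2 of the 70 (2.86%, beside 5.35% of all genes tested). Of the 70, 0 were without overlap between the diets, beside 3.39% of all genes tested. Their median log2 fold change was -0.08.

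Of 18 regulators of NRF2, such as the CUL3 ligase, the MAF partners and the competing repressors Bach1 and Bach2, 16 were tested, with 4 positive, 12 negative, 0 called and a median of -0.16. Rbx1, the ring subunit of the CUL3 ligase, was at 19.8 ± 6.74 CPM in HFD and 6.97 ± 5.29 CPM in chow (SD, n = 4 each), a log2 fold change of 1.496 (SE 0.94, edgeR adjusted p = 0.987). Mafg, a small MAF partner, was at 27.3 ± 14.3 and 14.3 ± 9.61 CPM in HFD and chow. Syvn1, a ubiquitin ligase of the endoplasmic reticulum, was at 5.56 ± 3.89 and 15.4 ± 10.2 CPM in HFD and chow.

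Of 24 other NRF2 target genes, 20 were tested, 10 with a positive and 10 with a negative value, 0 called and a median of 0.0015. Fth1, the ferritin heavy chain that stores iron, had the smallest unadjusted p of the lists (0.0109, edgeR adjusted p = 0.752). It was at 1470, 1471, 1504 and 1738 CPM in HFD replicates 5 to 8, against 1818, 2174, 2416 and 1667 CPM in chow replicates 1 to 4. Of the HFD libraries 3 lay below every chow library, and HFD replicate 8 lay within the chow range. The log2 fold change was -0.39 (SE 0.14), and it stayed negative under all 17 alternatives, from -0.48 to -0.18. Hmox1, which encodes the haem-degrading enzyme heme oxygenase, was at 124, 97.9, 43.4 and 28.5 CPM in HFD, against 40.9, 45.4, 38.4 and 31.4 CPM in chow. HFD replicates 5 and 6 stood above every chow library and HFD replicate 8 below. The log2 fold change was 0.91 (SE 0.48, edgeR adjusted p = 0.945), from 0.54 without HFD replicate 5 to 1.18 without HFD replicate 8. The stellate and fibroblast sums of the HFD libraries, 421, 249, 211 and 8.64 CPM, had the same order as their Hmox1 levels. In chow the order differed: chow replicate 2 had the lowest sum, 1.87 CPM, and the highest Hmox1 level. With that sum as a covariate the value turned to -0.44 (SE 0.78), and the part of stellate and fibroblast RNA in it was not tested. Srxn1, the sulfiredoxin that repairs over-oxidised peroxiredoxins, was at 3.62 ± 2.23 CPM in HFD and 16.1 ± 18.3 CPM in chow (SD, n = 4 each). Its log2 fold change was -2.14 (SE 1.13, edgeR adjusted p = 0.948). The highest level, 42.7 CPM, was in chow replicate 4, the library with the highest acinar sum, 3249 CPM. HFD replicate 7 had the next highest acinar sum, 1551 CPM, and 2.53 CPM of Srxn1. The part of acinar RNA in the Srxn1 levels was not tested.

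Of 32 further glutathione genes only 14 were tested, and 5 were at 0 in every library. There were 10 positive and 4 negative values, 0 calls and a median of 0.18. Gsto1, an omega-class glutathione transferase, was at 5.16, 18.9, 10.5 and 29.7 CPM in HFD replicates 5 to 8, against 5.17, 5.31, 1.45 and 0.472 CPM in chow replicates 1 to 4. HFD replicates 6, 7 and 8 were above every chow library and HFD replicate 5 was within the chow range. Its log2 fold change was 2.36 (SE 1.09, unadjusted p = 0.0436, edgeR adjusted p = 0.912), positive under all 17 alternatives, from 1.88 to 2.88. The glutaredoxin Glrx was at 41.1 ± 23.2 CPM in HFD and 21.5 ± 12.8 CPM in chow, and Glrx3 at 29.1 ± 16.1 CPM in HFD and 14.0 ± 7.39 CPM in chow (SD, n = 4 each). The value of Glrx3, 1.05 (SE 0.72), turned to -0.75 with the stellate and fibroblast covariate.

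Of 18 further genes of the thioredoxin and peroxiredoxin system 14 were tested, 5 positive, 9 negative, 0 called, with a median of -0.28. Txnip, the thioredoxin-binding protein gene induced by glucose, was at 379 ± 65.7 CPM in HFD and 458 ± 93.6 CPM in chow (SD, n = 4 each), a log2 fold change of -0.27 (SE 0.20). Txndc17 was at 33.9 ± 24.0 and 20.2 ± 12.01 CPM in HFD and chow. Msrb2, a methionine sulfoxide reductase, was at 7.25 ± 5.09 CPM in HFD and 17.985 ± 25.8 CPM in chow, and its log2 fold change of -1.30 turned to 0.51 without chow replicate 1. Of 7 genes that remove superoxide or hydrogen peroxide 6 were tested, 3 positive and 3 negative, 0 called, with a median of 0.07. The cytosolic dismutase gene Sod1 was at 69.0 ± 26.8 CPM in HFD and 42.5 ± 27.0 CPM in chow, and the catalase gene Cat at 310 ± 50.6 CPM in HFD and 262 ± 37.4 CPM in chow (SD, n = 4 each). Ccs, the copper chaperone of SOD1, was at 0, 0.174, 0.422 and 5.42 CPM in HFD replicates 5 to 8, against 3.15, 6.71, 4.15 and 4.48 CPM in chow replicates 1 to 4. HFD replicates 5, 6 and 7 were below every chow library, at levels under what a count of 0 allows in HFD (0.521 to 0.632 CPM). HFD replicate 8 was within the chow range. The log2 fold change of Ccs was -1.61 (SE 1.47, edgeR adjusted p = 0.987).

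**Figure D4:**
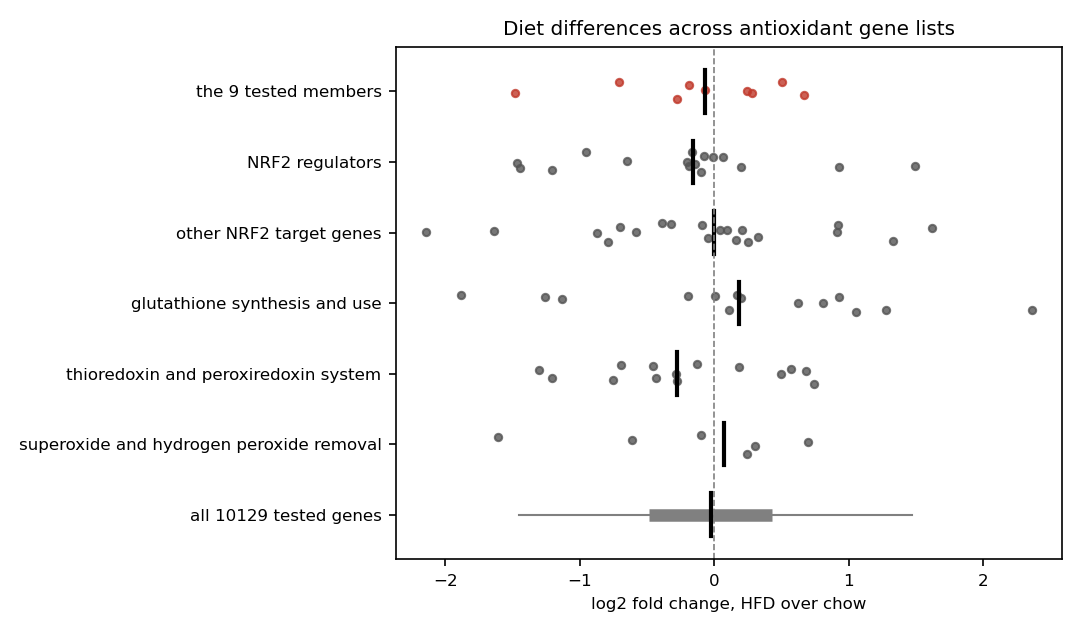
Log2 fold change of HFD over chow (x axis) of the tested genes of each antioxidant list; each point is 1 gene and the vertical bar the list's median. The lowest row gives all 10129 genes tested, with the median, the middle of the distribution between percentiles 25 and 75 (thick) and between percentiles 5 and 95 (thin); the list medians lie between -0.28 and 0.18.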

How the data were processed

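RNA was extracted on columns and 500 pg per library was amplified with the Ovation kit, per the labels' protocols. The submitters' processing notes name FastQC, Trim Galore, STAR and GRCm38; for the counting program, the annotation release and all versions, nothing is given in the sources used here. The authors' deposited table holds expected counts per gene, not scaled between libraries; 7.66% to 8.32% of the values above 0 per library were not whole, and all were rounded. No molecular identifiers were stated, so counting intervals and floors leave out amplification. All 28 pairs of libraries differed beyond sampling noise, with a chi-square of at least 36.3 per degree of freedom.

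The whole table was tested with edgeR (version 4.0.16) in R (version 4.3.3): TMM scaling, filterByExpr, a robust quasi-likelihood fit with diet as the only term, two-sided, Benjamini-Hochberg adjustment over 10129 genes at 0.05. SE and intervals (95%) come from that fit. Profiles on the log2 scale used 0.5 counts as pseudocount; the covariate was log2 of the marker sum plus 1 CPM. Alternatives were 3 scalings, 2 filters (none, or 5 CPM or more in 4 or more libraries), DESeq2 (version 1.42.0), limma-voom with quality weights (limma version 3.58.1), a fit that is not robust, the stellate and fibroblast covariate and each library left out. The fit was tested on simulated data. Exon lengths and coordinates are from GENCODE M21 (GRCm38), 1-based. Symbols were matched to the table; for Itgam 1 row was used.

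The members and lists were chosen with earlier results of these data known. Named genes were all members, the 3 tested genes with the smallest p of each list, the sort markers and the 3 profiles nearest Nfe2l2, of which 1 is not reported here; Gm16754 was named after its values were seen.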

Additional observations from a re-analysis of the deposited data

Results flagged for a closer look

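In 6 of 57 groups of 4 libraries, 1 library stood apart from the other 3 by Dixon's criterion. Chance meets it in about 1 in 20 groups of normally distributed values. Levels near 0 need not be so distributed, and 1 value beside 3 values of 0 always meets it, as for Nqo1. The number of groups flagged was therefore not compared with that rate. Nqo1 was at 3.18 CPM in HFD replicate 5 and at 0 in the other HFD libraries. Gpx4 was at 26.9 CPM in HFD replicate 6 and at 0 to 2.53 CPM in the other HFD libraries. Fth1 was at 1738 CPM in HFD replicate 8 and at 1470 to 1504 CPM in the others. Cat was at 234 CPM in HFD replicate 6 and at 334 to 336 CPM in the others, and Ccs at 5.42 CPM in HFD replicate 8 and at 0 to 0.422 CPM in the others. Msrb2 was at 56.6 CPM in chow replicate 1 and at 3.73 to 5.93 CPM in the other chow libraries.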

How the results depend on the processing

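No antioxidant gene was called under any of the 17 alternatives. The number of genes called among all tested was 0 in the reported fit, 45 with no filter, 28 with DESeq2, 1 with limma-voom, and 0 to 11 when 1 of the 8 libraries was left out, the 11 without HFD replicate 8. The median log2 fold change of the 9 antioxidant genes tested was -0.07, -0.32 with limma-voom, 0.22 with the stellate and fibroblast covariate, and -0.27 to 0.11 over the libraries left out, the -0.27 without HFD replicate 6. The cause was not tested. With the covariate the sign turned for Nfe2l2 (0.50), Txnrd1 (0.26), Gpx4 (-3.58), Hmox1 (-0.44), Glrx3 (-0.75), Ccs (0.13), Itgam (-0.47), Swap70 (0.30) and Phf14 (0.41). With library totals it turned for Nfe2l2 (0.0025) and Phf14 (0.0025), and with limma-voom for Gpx4 (-0.48). Leaving out 1 library gave -0.27 to 0.0342 for Nfe2l2, -0.52 to 0.14 for Gclc, -0.27 to 0.83 for Gclm, -2.50 to 1.26 for Gpx4, -0.0601 to 0.51 for Sod2, -1.87 to 0.51 for Msrb2, -0.0172 to 0.30 for Itgam and -0.18 to 0.0514 for Phf14. Keap1, Gsr and Prdx1 kept their sign under every alternative. No paired analysis was possible because HFD and chow libraries share no replicate numbers. Low counts limit Nqo1, Gpx4 and Keap1, whose libraries held 0 to 16, 0 to 155 and 4 to 164 counts. They also limit Gsr and Txnrd1, with 11 to 105 and 21 to 144 counts.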
